A study of Homo sapiens with 2 samples.

Results

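Sialic acid is the sugar that usually ends the glycan chains on the surface of a cell, and 10 genes that attach it, supply it or remove it were followed here in Ramos, a human Burkitt's lymphoma (BL) cell line of B-cell origin, and in Ramos640, its derivative that resists rituximab-mediated complement-dependent cytotoxicity. The members were ST3GAL1, ST3GAL2, ST3GAL3, ST3GAL4, ST3GAL5, ST3GAL6 and ST6GAL1, which encode sialyltransferases, GNE and CMAS, which encode enzymes of sialic acid supply, and NEU1, which encodes a sialidase. They were taken by name from the 37122 rows of the RNA-seq count table, and the list was chosen by role but in part on the measured difference of ST3GAL6 between the libraries, so the differences below are descriptions and support nothing on their own. Ramos was the original line. Ramos640 was made from it with escalating rituximab in the presence of human serum, and was kept resistant with rituximab and 20% normal human serum (NHS) every 21 days. The sample labels give the rituximab concentration as 640 mg/mL and the methods of the study as 640 μg/mL. RNA from 3 passages of each line was pooled before sequencing, so each line had 1 library, Ramos640 stands for 1 selected line, and no difference between the lines has a replicate check.

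Sialyltransferases work in the Golgi and move sialic acid from its activated form, CMP-sialic acid, onto the end of a glycan. The ST3GAL enzymes link it to the third carbon of galactose and ST6GAL1 links it to the sixth carbon, which makes the ligand of CD22, an inhibitory receptor of B cells. Sialic acid on the surface is also known to bind factor H, a serum protein that limits complement.

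The libraries held 38030090 reads on genes in Ramos and 30871826 in Ramos640. Where no read was counted, up to 3 could still be expected, or 0.0789 CPM (counts scaled to a common library total) in Ramos and 0.0972 CPM in Ramos640. Counts were divided by size factors of 1.14 and 0.876 to give normalized reads, and the log2 fold change of Ramos640 relative to Ramos was computed with a pseudocount of 1. The 95% intervals are exact, apply to the ratio without the pseudocount, and cover counting error only. All 8 B-cell markers reported (MS4A1, CD79A, CD79B, PAX5, CD22, CD38, MME and BCL6) had at least 4348 reads in Ramos and at least 1904 in Ramos640. The lowest was CD38 in Ramos and MS4A1, which encodes CD20, in Ramos640. MS4A1 had 9654 reads in Ramos and 1904 in Ramos640 (-1.96, interval -2.03 to -1.89). PAX5 (-0.80) and MME (-0.92) were also lower past 1.5-fold, and CD79B (0.64, or 0.56 when scaled to total counts) was higher. That is 3 of the 8 lower and 1 higher, against 17.3% and 14.6% of all genes with at least 10 reads. The 6 T cell markers summed to 17 and 51 reads, with CD3D, CD8A and CD2 at 0 in both libraries and CD3E at 1 and 31 reads. The 5 monocyte markers summed to 17 and 10 reads and the 5 epithelial markers to 43 and 16. No gene of these 3 lists exceeded 31 reads, and their part in the results was not tested.

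ST3GAL6, which encodes an enzyme that caps galactose on N-acetyllactosamine chains, was almost unread in Ramos and clearly read in Ramos640. The Ramos library held 5 of its reads and the Ramos640 library 138, or 4.38 and 157 normalized reads. Its level in Ramos640 was 35.9-fold that in Ramos, with an interval from 15.0-fold to 112-fold, and the log2 fold change was 4.88 (interval 3.91 to 6.81). The width of the interval comes from the Ramos library. Among the 13677 genes with at least 100 reads in both libraries together, 6 had a larger log2 fold change, and among the 18778 genes with at least 10 reads 19 did. The gene lies at chr3:98451080-98540045 of GRCh37 on the + strand. The antisense gene ST3GAL6-AS1, which shares 174 exon bases with it, had 0 reads in both libraries. DCBLD2, on the opposite strand, shares 235 exon bases with it and was counted at 198 reads in the original line and 127 in the resistant one (-0.26, interval -0.59 to 0.07), so DCBLD2 was not higher where ST3GAL6 was. The largest overlap was with PDLIM1P4, a processed pseudogene on the same strand that shares 354 exon bases with it and matched no row of the table. The use of strand in counting is not stated, so the reads of ST3GAL6 are uncertain to the extent of these overlaps. The nearest genes with at least 100 reads that do not overlap it were CPOX, 139 kb before it, at -0.27 (interval -0.40 to -0.15), and C3orf26, 997 kb after it, at 0.44 (interval 0.38 to 0.50). Both neighbours lay within 1.5-fold.

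ST3GAL5 was the member with the lowest log2 fold change. It encodes GM3 synthase, which puts sialic acid on lactosylceramide as the first step of ganglioside synthesis. Its reads numbered 129 in Ramos and 52 in Ramos640, or 113 and 59.3 normalized reads, so Ramos640 held 52.5% of the Ramos level. Its log2 fold change was -0.92 (interval -1.42 to -0.45). The gene lies at chr2:86064243-86132322 of GRCh37 on the - strand, and its nearest neighbours with at least 100 reads were USP39 at -0.07 and POLR1A at 0.36.

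The sequences before the starts of ST3GAL6 and ST3GAL5 are shown because these members lie at the ends of the range of differences, and because each gene has several RefSeq starts that one count per gene merges. RefSeq lists 4 starts of ST3GAL6 and 5 of ST3GAL5. For each gene the 250 bases before the start with the fewest and with the most CpG dinucleotides follow, 5′ to 3′, with CpG in capitals.
ST3GAL6 start with the fewest CpG, chr3:98763090-98763339 of GRCh38.p14, + strand: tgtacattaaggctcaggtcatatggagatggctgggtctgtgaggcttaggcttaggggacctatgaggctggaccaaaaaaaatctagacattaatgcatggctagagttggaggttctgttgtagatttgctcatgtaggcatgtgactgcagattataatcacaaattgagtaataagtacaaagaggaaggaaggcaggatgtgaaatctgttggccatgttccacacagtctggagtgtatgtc
ST3GAL6 start with the most CpG, chr3:98732451-98732700 of GRCh38.p14, + strand: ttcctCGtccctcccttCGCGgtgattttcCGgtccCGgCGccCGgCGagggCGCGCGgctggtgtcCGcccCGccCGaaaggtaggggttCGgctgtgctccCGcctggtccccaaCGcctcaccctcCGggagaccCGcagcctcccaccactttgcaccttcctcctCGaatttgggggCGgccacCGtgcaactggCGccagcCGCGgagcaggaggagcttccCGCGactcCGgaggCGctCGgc
ST3GAL5 start with the fewest CpG, chr2:85854172-85854421 of GRCh38.p14, - strand: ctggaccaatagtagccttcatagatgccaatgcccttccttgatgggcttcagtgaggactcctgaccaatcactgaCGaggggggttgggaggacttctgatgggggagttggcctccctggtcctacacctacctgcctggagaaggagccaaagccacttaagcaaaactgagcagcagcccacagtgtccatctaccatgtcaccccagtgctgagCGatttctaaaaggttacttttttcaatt
ST3GAL5 start with the most CpG, chr2:85888748-85888997 of GRCh38.p14, - strand: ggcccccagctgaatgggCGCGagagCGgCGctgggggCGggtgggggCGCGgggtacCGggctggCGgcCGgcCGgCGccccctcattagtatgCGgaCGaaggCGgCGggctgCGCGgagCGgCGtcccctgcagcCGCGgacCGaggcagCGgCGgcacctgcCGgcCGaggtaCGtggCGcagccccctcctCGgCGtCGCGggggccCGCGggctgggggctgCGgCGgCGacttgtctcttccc
The windows of ST3GAL6 held 0, 6, 22 and 30 CpG and those of ST3GAL5 held 2, 2, 24, 29 and 38, against a median of 11 over the 35116 RefSeq starts. So both genes have CpG-poor and CpG-rich starts, and the counts do not say which were used. The ST3GAL5 windows with 2 CpG each (chr2:85854172-85854421 and chr2:85854176-85854425) share nearly all their bases. Those with 24 and 29 CpG also overlap, and the window with 29 CpG shares a few bases with that of 38. So the 5 windows are not separate stretches. The letters GGGCGG, searched on both strands, were in the windows of 2 of the 4 ST3GAL6 starts and 3 of the 5 ST3GAL5 starts, and in 42.6% of all windows. TATAAA was in none of these 9 windows and in 10.7% of all windows.

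The other 4 ST3GAL genes differed little between the libraries. ST3GAL2, which sialylates galactose on O-glycans and gangliosides, had 1891 reads in Ramos and 1626 in Ramos640, and 1657 and 1856 normalized reads. Its log2 fold change was 0.16 (interval 0.07 to 0.26). ST3GAL4, which like ST3GAL6 acts on N-acetyllactosamine chains, had 867 and 635 reads, or 760 and 725 normalized reads (-0.07, interval -0.22 to 0.08). These are the ST3GAL genes with the most reads, and both stayed within 1.5-fold. ST3GAL3, which acts on N-glycan and related chains, had 384 and 340 reads, or 336 and 388 normalized reads (0.20, interval -0.01 to 0.42). ST3GAL1, which caps the core of O-glycans, had 111 and 95 reads, or 97.3 and 108 normalized reads (0.16, interval -0.25 to 0.56). The intervals of ST3GAL1, ST3GAL3 and ST3GAL4 held 0, so a difference was not detectable at this depth. Their places on GRCh37 are chr8:134467091-134584169 for ST3GAL1, chr16:70409880-70473140 for ST3GAL2, chr1:44171495-44396837 for ST3GAL3 and chr11:126225535-126310239 for ST3GAL4. ST3GAL3 shares 1951 exon bases with an unnamed protein-coding gene model on the same strand, so its reads are uncertain. On the opposite strand ST3GAL3 shares 113 exon bases with ST3GAL3-AS1, and ST3GAL2 shares 590 with an unnamed noncoding gene model. Strand use is not stated, so the reads of ST3GAL2 are also uncertain to that extent.

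ST6GAL1 was by far the most read member and was nearly level between the libraries. It lies at chr3:186648114-186796341 of GRCh37, with 17221 reads in Ramos against 13579 in Ramos640, or 15090 and 15496 normalized reads. Its log2 fold change was 0.04 (interval 0.01 to 0.07), and it was -0.04 when the libraries were scaled to total counts, so its direction depends on the scaling. Within the Ramos library there were 5.08 ST6GAL1 reads (interval 4.90 to 5.28) for each read on the 6 ST3GAL genes together, and within Ramos640 4.71 (interval 4.52 to 4.90). This ratio does not depend on the scaling between the libraries, and on reads per kilobase of exon it was 4.06 and 3.73. The denominator includes ST3GAL6, with 5 and 138 reads, on which the list was chosen in part. Without ST3GAL6 the ST3GAL genes held 3382 reads in Ramos and 2748 in Ramos640, and the ratio on that total was not computed. In both libraries the enzyme of the sixth carbon thus had more reads than all those of the third carbon.

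Among the supply genes, CMAS was lower in Ramos640 and GNE slightly higher, by an amount that depends on the scaling. GNE encodes the enzyme that makes and phosphorylates N-acetylmannosamine and sets the pace of sialic acid synthesis. It lies at chr9:36214438-36277039 of GRCh37 and had 738 and 644 reads, or 647 and 735 normalized reads (0.18, interval 0.03 to 0.34). Under total counts it was at 0.10, and the interval does not cover the choice of scaling. CMAS encodes the nuclear enzyme that joins sialic acid to CMP. It lies at chr12:22199152-22218608, with 1334 reads in Ramos against 721 in Ramos640, or 1169 and 823 normalized reads, which left 70.4% of the Ramos level in Ramos640 (-0.51, interval -0.64 to -0.37). Within a library, there were 1.81 CMAS reads for each GNE read in Ramos (interval 1.65 to 1.98) and 1.12 in Ramos640 (interval 1.01 to 1.25).

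NEU1, which encodes the lysosomal sialidase that cleaves sialic acid from glycans, had the second highest log2 fold change of the members. It lies at chr6:31825436-31830682 of GRCh37, with 603 reads in Ramos against 658 in Ramos640, or 528 and 751 normalized reads. The log2 fold change was 0.51 (interval 0.35 to 0.67), a fold of 1.42. There were 2.21 CMAS reads for each NEU1 read in Ramos (interval 2.01 to 2.44) and 1.10 in Ramos640 (interval 0.984 to 1.22), so the ratio of the activating enzyme to the sialidase was lower in Ramos640 whatever the scaling. HSPA1B and EHMT2, the nearest neighbours of NEU1 with at least 100 reads, were also higher in Ramos640 (0.49 and 0.35).

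**Figure D1:**
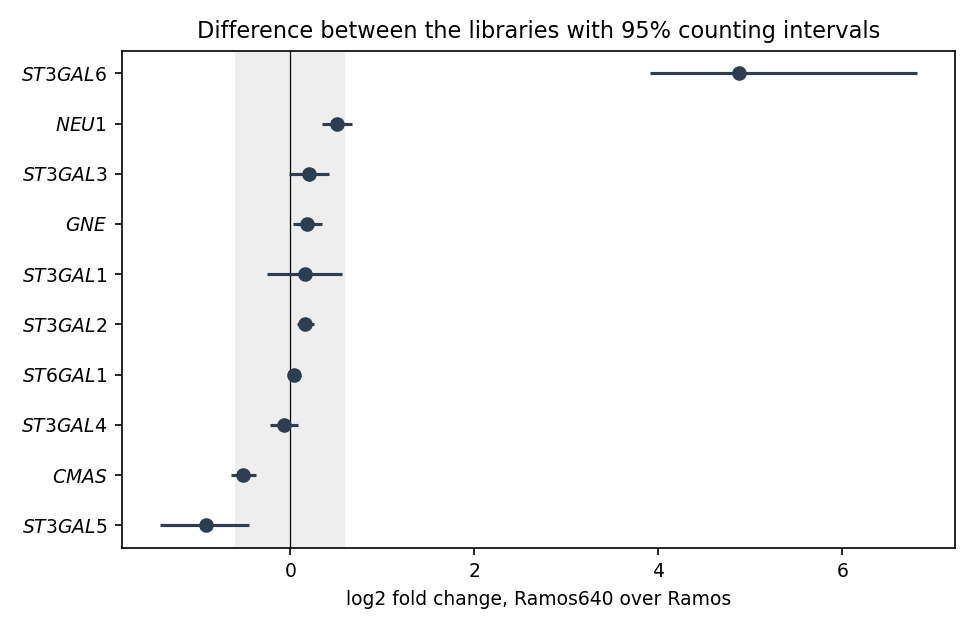
log2 fold change of the 10 genes (x axis, Ramos640 over Ramos, 1 library each) with 95% counting intervals as lines and the band of 1.5-fold in grey. ST3GAL6 at 4.88 stands far to the right, ST3GAL5 at -0.92 lies left of the band, and the other 8 genes lie inside it, ST6GAL1 at 0.04 (-0.04 under total counts).

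All 10 members had at least 10 reads in the libraries together, and 9 had at least 100 reads in Ramos alone. Past 1.5-fold, the fold of the study, 1 member was higher (ST3GAL6) and 1 was lower (ST3GAL5). Of the 18778 genes with at least 10 reads, 14.6% were higher and 17.3% lower. The study joined this fold to a limit on the false discovery rate, which was not applied here. Scaled to total counts, 1 member was higher and 2 were lower, the second being CMAS at -0.59, against 12.5% and 20.4% of all genes. With the whole interval past 1.5-fold, 1 member was higher and 0 were lower, against 5.79% and 7.35% of all genes. The intervals of 5 members lay above 0 and those of 2 below 0, against 29.6% and 31.6% of all genes. These intervals do not cover the choice of scaling, and the count of 5 depends on it. Under total counts ST3GAL2 was at 0.08, GNE at 0.10 and ST6GAL1 at -0.04, while NEU1 was at 0.43 and ST3GAL6 at 4.81. The median log2 fold change of the members was 0.16, also without ST3GAL6, against -0.015 over all genes of that background. Above 0 there were 7 members and below 0 3, or 6 and 4 when scaled to total counts. The share of all genes on each side of 0 was not computed. With the running median over GC content removed, ST3GAL6 was at 5.07, ST3GAL5 at -0.82, CMAS at -0.38 and NEU1 at 0.41, and the median of the members was 0.05.

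Per kilobase of exon, the levels of the members spanned a wide range in both libraries. In Ramos the order was ST6GAL1 (1354 normalized reads per kilobase), CMAS (592), ST3GAL2 (170), ST3GAL4 (127), GNE and NEU1 (110 each), ST3GAL3 (17.3), ST3GAL1 (11.1), ST3GAL5 (6.93) and ST3GAL6 (0.695). Of neighbours in this order, GNE and NEU1 had overlapping counting intervals and the others did not. In Ramos640 the order was ST6GAL1 (1391), CMAS (417), ST3GAL2 (190), NEU1 (156), GNE (126), ST3GAL4 (122), ST3GAL6 (25.0), ST3GAL3 (20.0), ST3GAL1 (12.3) and ST3GAL5 (3.64). Here the intervals overlapped between GNE and ST3GAL4 and between ST3GAL6 and ST3GAL3. ST3GAL6 thus went from the lowest member in Ramos to above ST3GAL1 and ST3GAL5 in Ramos640. With the longest transcript as the length, ST3GAL4 stood above ST3GAL2 in both libraries (350 and 187 in Ramos), ST3GAL5 stood above ST3GAL1 in Ramos (18.3 and 14.0) and ST3GAL3 above ST3GAL6 in Ramos640 (81.2 and 44.1).

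**Figure D2:**
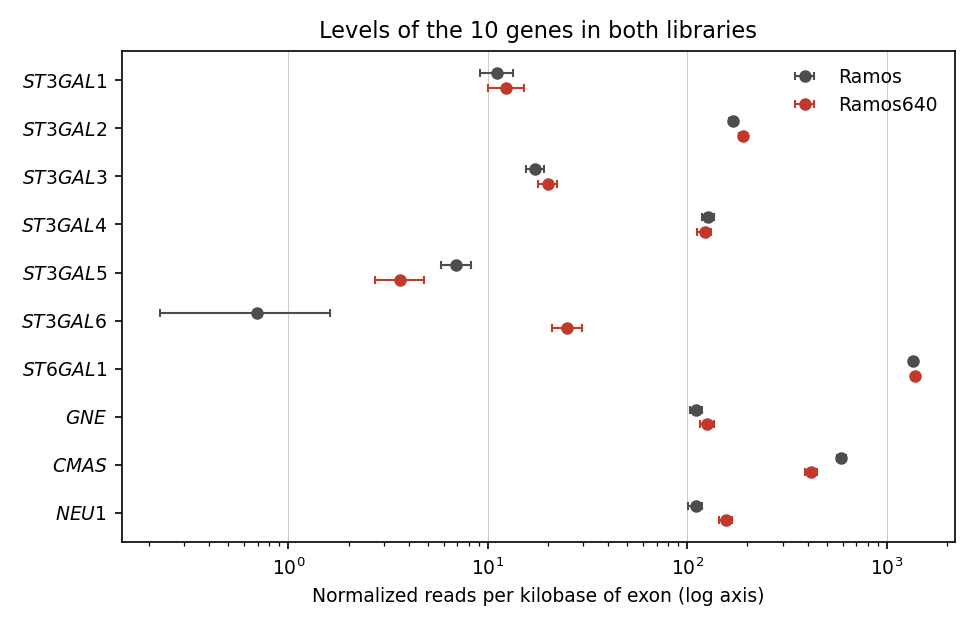
Normalized reads per kilobase of exon (x axis, log scale) of the 10 genes in Ramos (grey) and Ramos640 (red), 1 library each, with exact Poisson 95% intervals as bars. ST6GAL1 lies highest in both libraries (1354 and 1391), and ST3GAL6 goes from 0.695 in Ramos to 25.0 in Ramos640.

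Within the ST3GAL family, shares of reads do not depend on the scaling between the libraries. The 6 genes held 3387 reads in Ramos and 2886 in Ramos640. ST3GAL6 held 0.148% of them in Ramos (exact 95% interval 0.0479% to 0.344%) and 4.78% in Ramos640 (4.03% to 5.62%). ST3GAL4 held 25.6% (24.1% to 27.1%) and 22.0% (20.5% to 23.6%), and ST3GAL5 held 3.81% (3.19% to 4.51%) and 1.80% (1.35% to 2.36%). The intervals of these 3 genes did not overlap between the libraries. With ST3GAL6 left out of the total, a choice made after seeing the data, ST3GAL4 held 25.6% (24.2% to 27.1%) and 23.1% (21.5% to 24.7%), with overlapping intervals. ST3GAL5 then held 3.81% (3.19% to 4.52%) and 1.89% (1.42% to 2.47%), which did not overlap. For each ST3GAL2 read there were 0.458 ST3GAL4 reads in Ramos (interval 0.423 to 0.497) and 0.391 in Ramos640 (interval 0.356 to 0.428), again with overlapping intervals. Over all 6 genes, the intervals of ST3GAL2 (55.8% and 56.3%), ST3GAL3 (11.3% and 11.8%) and ST3GAL1 (3.28% and 3.29%) overlapped. Per read of ST3GAL4 there were 0.00577 reads of ST3GAL6 in Ramos and 0.217 in Ramos640, so ST3GAL4 remained the more read of these enzymes in both libraries.

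**Figure D3:**
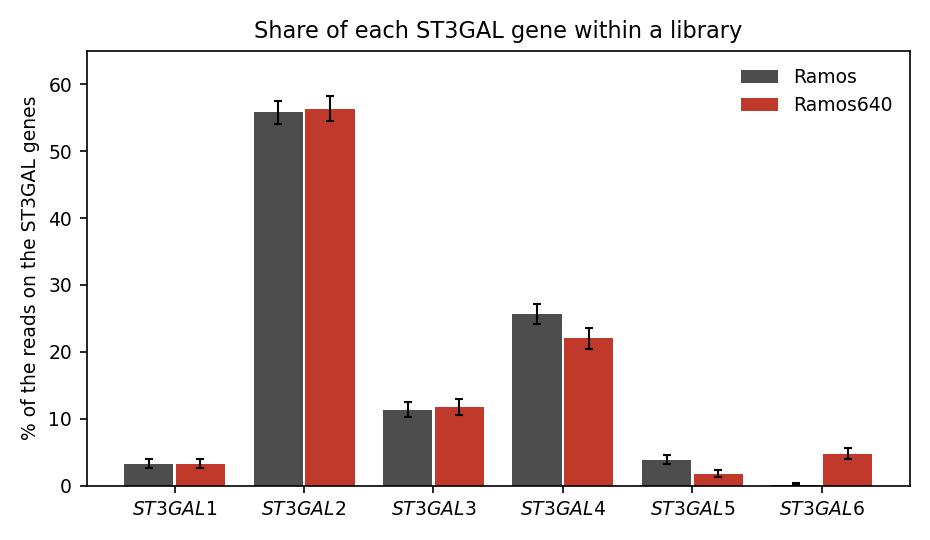
Share of the reads on the 6 ST3GAL genes held by each gene (y axis, percent) in Ramos (grey) and Ramos640 (red), with exact binomial 95% intervals as bars. ST3GAL2 holds over 55% in both libraries, and ST3GAL6 goes from 0.148% to 4.78%.

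The other genes of the pathway were examined as 9 lists with 76 genes in all, of which 47 had at least 10 reads. Past 1.5-fold, 5 of the 47 were higher and 8 lower in Ramos640, against 14.6% and 17.3% of all genes, so these shares lay near the background. Scaled to total counts, 3 were higher and 9 lower, against 12.5% and 20.4% of all genes. Their median log2 fold change was -0.01. Of the 13 other sialyltransferases, 6 had at least 10 reads, and 2 were higher and 2 lower past 1.5-fold. ST8SIA4, which builds polysialic acid, had 675 reads in Ramos and 172 in Ramos640 (-1.59, interval -1.84 to -1.35). ST8SIA5, which adds sialic acid to gangliosides, had 44 and 6 reads (-2.33, interval -4.02 to -1.26). ST8SIA4 and ST8SIA5 were thus lower in Ramos640, while ST8SIA1, which makes GD3, had 296 and 245 reads (0.11, interval -0.14 to 0.36). ST6GALNAC4, which acts on sialylated O-glycans, had 1486 and 1749 reads (0.62, interval 0.52 to 0.72). It lay within 1.5-fold at 0.54 under total counts and at 0.42 with the GC trend removed. ST6GALNAC2 was also past the fold but on 3 and 8 reads only (interval -0.26 to 4.35), and ST6GALNAC6 was at 0.53. ST6GAL2, ST6GALNAC1, ST8SIA2, ST8SIA3 and ST8SIA6 had no reads, and ST6GALNAC3 and ST6GALNAC5 had fewer than 10.

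Of the 11 genes of sialic acid supply and salvage, 10 had at least 10 reads. Past 1.5-fold, 0 were higher and 2 lower, against 14.6% and 17.3% of all genes, and the median was -0.04. NANS and NANP, the enzymes between GNE and CMAS, differed little, whereas CMAS was at -0.51. NANS, the sialic acid synthase, had 3218 and 2407 reads (-0.04, interval -0.11 to 0.04), and NANP, the phosphatase after it, had 371 and 285 reads (0.00, interval -0.23 to 0.23). SLC35A1, which carries CMP-sialic acid into the Golgi, had 982 and 638 reads (-0.24, interval -0.39 to -0.10), and 0.07 with the GC trend removed. The lower genes were NPL, the aldolase that breaks sialic acid down, with 221 and 90 reads (-0.91, interval -1.29 to -0.56), and CMAHP, the human remnant of the hydroxylase gene that modifies sialic acid in other mammals, with 516 and 164 reads (-1.27, interval -1.53 to -1.02). RENBP had fewer than 10 reads.

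None of the 3 measured sialidases and partners was past 1.5-fold, against 14.6% of all genes higher and 17.3% lower. CTSA, which encodes the protective protein that binds and stabilises NEU1 in the lysosome, had 546 reads in Ramos and 603 in Ramos640 (0.52, interval 0.35 to 0.69), close to the 0.51 of NEU1. GLB1, of the same complex, was at -0.18, and NEU3, the plasma membrane sialidase, at -0.13. NEU2 and NEU4 had no reads. Of the enzymes of sialic acid O-acetylation, SIAE, the esterase that removes the acetyl group, had 312 and 151 reads (-0.66, interval -0.96 to -0.38), and CASD1, which adds it, had 812 and 452 (-0.46, interval -0.63 to -0.30). With the GC trend removed they were at -0.44 and -0.16.

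Of the 15 sialic acid receptors, 4 had at least 10 reads. Past 1.5-fold, 2 of these were higher and 1 lower, against 14.6% and 17.3% of all genes. CD22, the main receptor for the product of ST6GAL1 on B cells, had 38776 reads in Ramos and 22738 in Ramos640 (-0.39, interval -0.41 to -0.37). SIGLEC10, another inhibitory receptor of B cells, had 1030 and 455 reads (-0.80, interval -0.96 to -0.64). Both receptors known from B cells were thus lower in Ramos640, SIGLEC10 past 1.5-fold. MAG, a receptor known from myelin, had 128 and 150 reads (0.61, interval 0.26 to 0.96, and 0.53 under total counts and 0.39 with the GC trend removed). CD33 was higher as well, at 2.23 (interval 0.76 to 5.04), on 3 and 14 reads only. The other 11, SIGLEC1, SIGLEC5, SIGLEC6, SIGLEC7, SIGLEC8, SIGLEC9, SIGLEC11, SIGLEC12, SIGLEC14, SIGLEC15 and SIGLEC16, had fewer than 10 reads, 9 of them none.

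The enzymes that build the chains to be capped were examined in 3 lists. Each count past 1.5-fold in this paragraph stands beside 14.6% of all genes higher and 17.3% lower. Of the 12 genes of N-glycan branching and galactosylation, 11 had at least 10 reads and 0 were past 1.5-fold, from MGAT5 at -0.47 to B4GALT3 at 0.34, with a median of 0.11. MGAT4A had 3 reads in Ramos and 0 in Ramos640. Of the 3 O-glycan core enzymes with at least 10 reads, 1 was lower past 1.5-fold, and their median was -0.51, or -0.16 with the GC trend removed. GCNT1, which makes the branched core, had 633 and 203 reads (-1.26, interval -1.49 to -1.03), C1GALT1 was at -0.51 and its chaperone C1GALT1C1 at -0.09, while GCNT3, GCNT4, B3GNT3 and B3GNT6 had fewer than 10 reads. Of the 5 ganglioside genes, which make the substrate of ST3GAL5 or use its product, 1 was higher and 1 lower past 1.5-fold. B4GALT6, one of the lactosylceramide synthases, had 241 and 29 reads (-2.64, interval -3.28 to -2.11), whereas B4GALT5, the other, had 931 and 1042 (0.54, interval 0.41 to 0.67). B3GALT4, which adds galactose to gangliosides, had 59 and 124 reads (1.44, interval 0.99 to 1.93). B4GALT6 and ST8SIA5 both lie on chromosome 18, and the genes with at least 100 reads next to them were low as well, with TRAPPC8 at -1.28, C18orf25 at -1.68 and PIAS2 at -1.59. KCTD1, 4965 kb before B4GALT6, was at -0.08. Of the fucosyltransferases and SELPLG, which carries selectin ligands, 0 of 3 with at least 10 reads were past 1.5-fold, SELPLG being at 0.30, and FUT4, FUT7 and FUT9, among the fucosyltransferases that complete sialyl Lewis structures, had 9 reads or fewer in both libraries together.

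**Figure D4:**
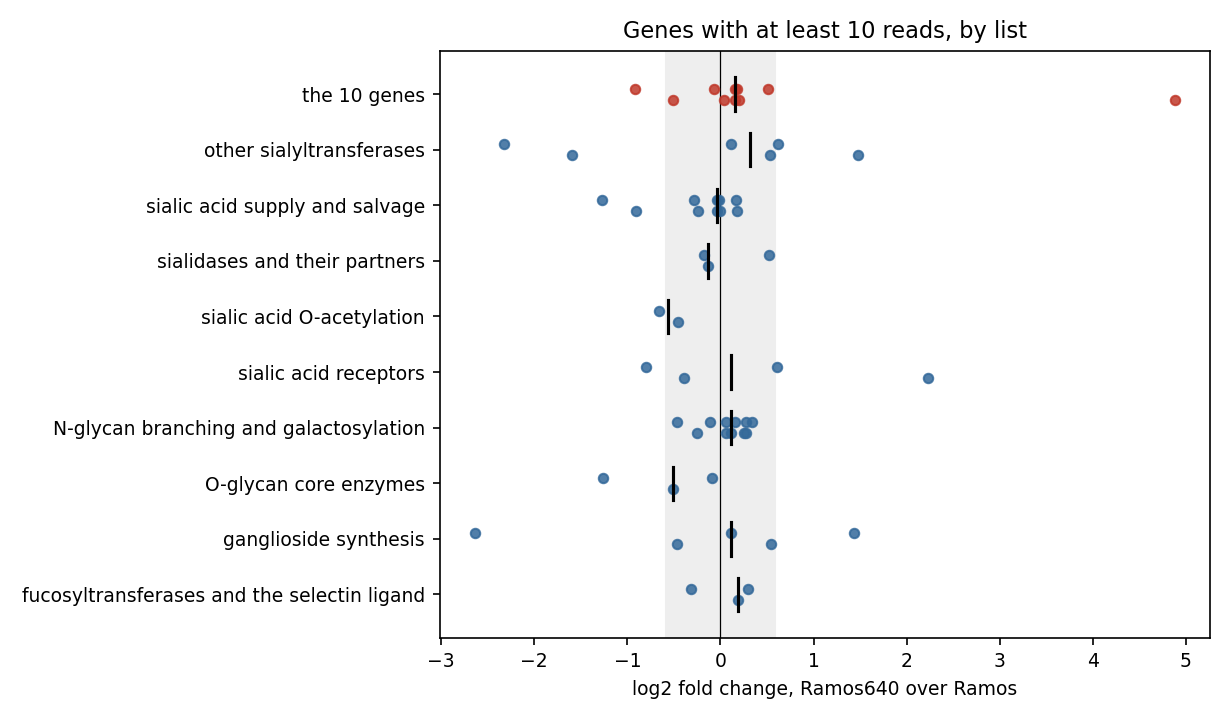
log2 fold change (x axis, Ramos640 over Ramos, 1 library each) of each gene with at least 10 reads, in rows by list, with the 10 genes in red, the other genes of the pathway in blue, list medians as black bars and the band of 1.5-fold in grey. The N-glycan genes lie inside the band (-0.47 to 0.34), and ST3GAL6 at 4.88 lies to the right of all other genes shown.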

How the data were processed

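RNA-seq libraries of Ramos and Ramos640 cells were compared, with 1 library per cell line from pooled RNA. The authors removed adaptors, aligned the Ion Proton reads to GRCh37 with MapSplice and deposited raw read counts per gene. The counting program, annotation, strand use and handling of reads with several matches are not given in the sources used here. The members, the gene lists and the alternatives were chosen with earlier results of these data known.

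Median-of-ratios size factors over genes read in both libraries set the scale, as in DEseq. Intervals at 95% were exact (Clopper-Pearson for ratios and shares, Poisson for levels, scipy 1.17.1). They cover counting error only. Genes with at least 10 reads in both libraries together entered the background. No test between the cell lines was run, since 1 library per line gives no replicate spread. TMM factors (edgeR 4.0.16), total counts, pseudocounts of 0.1 and 10, minimums of 1 and 100 reads, a 2-fold limit and removal of the GC trend (running median over 501 of 10246 protein-coding genes of 100 reads or more) served as alternatives, and the split of the members by sign was added after seeing the data. Coordinates, lengths and GC content came from GENCODE v44lift37 on GRCh37, matched by symbol for 28793 rows (84.1% of genes with at least 10 reads, all 10 members). Lengths are the union of a gene's exons. Sequences came from RefSeq on GRCh38.p14, which matched 8 members with 18 starts. The computation across genes was tested on simulated counts with counting error only and changes in genes averaging at least 100 normalized reads. That checks the code, and covers neither spread between libraries nor changes in genes with fewer reads. Named genes are the members, the listed genes past 1.5-fold with at least 100 reads, among them the 3 highest and 3 lowest, and those with fewer than 10. Other pathway genes, markers and neighbours were named after their values were seen. A further B-cell marker is not reported here.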

Additional observations from a re-analysis of the deposited data

How the results depend on the processing

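No paired analysis was possible because each cell line has 1 library, and leaving out a replicate was not possible for the same reason. Over all alternatives, 49 summary values and 99 other values stayed within 1.5 times, within their counting interval or, for the median of the members, within 0.1, and 11 summary values, given below, and 5 others moved beyond it: ST6GAL1 (-0.04 under total counts), and with the GC trend removed ST3GAL2 (0.02), ST6GALNAC4 (0.42), ST8SIA4 (-1.27) and GCNT1 (-0.95). None changed the direction of a gene past 1.5-fold. Scaled to total counts, 2 members were lower past 1.5-fold in place of 1, against 20.4% of all genes. Under the same scaling 3 other pathway genes were higher in place of 5, against 12.5% of all genes. Total counts shifted the median of all genes by -0.0797. A limit of 2-fold left 0 members lower, as did the requirement of a whole interval past 1.5-fold, and 6.64% of all genes higher and 8.75% lower. With a pseudocount of 10 the log2 fold change of ST3GAL6 was 3.54, as a larger pseudocount shrinks the ratio of a gene with 5 reads. With the GC trend removed the median of the members was 0.05 and 3 other pathway genes were higher past 1.5-fold. The share of all genes was not computed for that setting. With at least 1 read, 9 of the other pathway genes were higher, against 20.2% of all genes, and 20 of the 76 had no reads. With at least 100 reads, 3 of 44 were higher, against 9.94% of all genes. The 5 Ramos reads limit the precision of the ST3GAL6 difference.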
